A study of Mus musculus with 26 samples.

Results

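The genes of the cytosolic ribosomal proteins were followed through sorted mouse CD4+ T cells. Members were taken by symbol, as names made of Rpl or Rps and a number (with a short suffix) plus Rplp0, Rplp1, Rplp2 and Rpsa, without gene models marked as pseudogenes and without the Rps6k kinases, and with at least 260 reads summed over 26 libraries. Of 24411 genes in the count table, 84 symbols matched and 79 passed the read minimum. They comprise 46 genes of the large (60S) subunit and 33 of the small (40S) subunit. Just inside the minimum lay Rps4l with 529 reads. Just outside it lay Rpl39l with 171 reads and Rpl30 with 166, followed by Rpl3l with 15 and by Rpl26 and Rpl10l with 0. All 79 members passed the expression filter of the test, which kept 12227 genes.

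Poly(A) RNA was sequenced from CD4+ cells that were taken straight from the sort, with spleen and lymph nodes of mice of strain C57BL6/J as the source. There were 13 groups with 2 libraries each. Foxp3 is the transcription factor that defines regulatory T cells (Treg), and BATF is an AP-1 family factor active in effector lymphocytes. The study asked how both shape the Treg programme. In the germline set, WT Treg and BATFKO Treg were CD4+hCD2+ cells of Foxp3-IRES-hCD2 mice, without or with Batf-/-, and Tconv were the CD4+hCD2- cells of Foxp3-IRES-hCD2 mice. The title of the Tconv libraries says Tconv while their cell type label says Treg, and they were grouped by title. In the YFP set, CD4+YFP+hCD2- cells came from Foxp3-IRES-YFPCre/Foxp3-IRES-hCD2 mice with normal Batf (WT Treg YFP) or with Batfflox/flox (BATFcKO Treg YFP), so that the Cre was under the control of Foxp3. Mice of the remaining mutant sets carried a second, GFP-tagged wild-type Foxp3 allele, and their CD4+hCD2+GFP- cells were sorted. The hCD2-tagged allele was Foxp3R397W, Foxp3fs101 (Foxp3KO Treg) or Foxp3WT in separate controls for each mutant. From Foxp3-IRES-hCD2 mice, 4 further populations were sorted. These were cTreg (hCD2+CCR7hiCD62LhiCD44lo), eTreg (hCD2+CCR7loCD62Llo), Tnaive (hCD2-CCR7hiCD62LhiCD44lo) and Teff (hCD2-CCR7loCD62Llo). Ages are not stated, and nothing in the labels ties the 2 libraries of each group to different animals, so p-values measure only the spread between these samples.

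Each ribosome holds a single copy of nearly every ribosomal protein, so cells make these proteins in matched amounts, and their messenger RNAs are among the most abundant in lymphocytes. Vertebrate ribosomal protein genes typically begin transcription at a cytosine within a run of pyrimidines. The resulting 5′ terminal oligopyrimidine (TOP) tract ties translation of these messages to mTOR signalling, with LARP1 as a binding protein. Naive T cells that meet antigen enlarge their ribosome pool through MYC and mTOR. The family is also known for its many processed pseudogenes, which are near copies of the spliced messages elsewhere in the genome.

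The start regions were searched for a short pyrimidine run. It was accepted anywhere near the annotated start, so a match does not place a TOP tract at the first transcribed base. RefSeq promoter windows (GRCm38.p6, 250 bases before to 50 after the annotated start) were matched for 59 of the 79 members, with 70 windows because some genes have several starts. Windows of the same gene can hold the same run, as those of Rpl35a do. The run CTTTCC on the coding strand, between 50 bases before and 50 after the start, was present in 20 of the 70 windows, or 28.6%, against 4.43% of 11898 windows of tested genes and 4.69% of all 32851 windows. Stretches of 30 bases follow, 5′ to 3′ on the gene's strand, with CTTTCC in capitals. The first 7 were chosen because they hold the run and are aligned on it, so their likeness there is fixed by the choice. In 6 of them it begins within 9 bases after the annotated start, Rpl4 holds it 17 bases upstream, and Rplp0, Rps26 and Rpl7l1, which are described below, lack this exact run.
Rpl28, chr7:4792955-4792984, plus strand: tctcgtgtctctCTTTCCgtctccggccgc
Rpl38, chr11:114668568-114668597, plus strand: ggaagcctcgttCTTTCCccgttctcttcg
Rps27, chr3:90213630-90213659, minus strand: ccgctttcgctcCTTTCCggcggtgacgac
Rps10, chr17:27635223-27635252, minus strand: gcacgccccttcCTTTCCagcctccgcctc
Rpl15, chr14:18270965-18270994, minus strand: aaagccttcttcCTTTCCtctggcggcagc
Rpl13a, chr7:45128719-45128748, minus strand: caagacctcctcCTTTCCcaggcggctgcc
Rpl4, chr9:64173358-64173387, plus strand: caagtgacaagtCTTTCCttttcctgtggg
Rplp0, chr5:115559452-115559481, plus strand: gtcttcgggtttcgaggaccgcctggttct
Rps26, chr10:128626492-128626521, minus strand: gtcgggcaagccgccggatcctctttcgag
Rpl7l1, chr17:46782642-46782671, minus strand: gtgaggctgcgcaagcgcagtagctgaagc

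Other short motifs were searched in the whole windows on both strands. CCGGAAG, the core bound by ETS factors, was in 35.7% of the members' windows and 17.7% of those of tested genes. ATGGCGG was in 20% against 7.96%, and CACGTG, the E-box bound by MYC, in 11.4% against 9.89%. A match describes letters only, and a missing match says nothing about a factor.

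Read depth was 5615929 to 34613707 gene counts per library. The targeted genes matched their labels: Batf had 7.22 and 6.83 CPM (counts normalised to library size with TMM scaling) in BATFKO Treg against 46.1 and 82.9 in WT Treg, and 19.5 and 15.9 in BATFcKO Treg YFP against 67.8 and 58.5. Foxp3 had 109 and 113 CPM in Foxp3KO Treg against 348 and 326 in its control. The 7 T cell markers found in the table summed to between 4227 and 5778 CPM in all 26 libraries.

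The share of all gene counts that fell in the 79 genes set the libraries apart before any comparison was made. In 22 libraries it ran from 1.47% to 2.93%. In the 2 Foxp3KO Treg libraries it was 7.88% and 7.86%, and in their 2 controls 7.51% and 7.47%. The R397W controls, with the same genotype and gate as the Foxp3KO controls, had 2.01% and 1.88%. The Foxp3KO set was also sequenced to 26321134 to 34613707 counts, against at most 10641332 elsewhere, and its samples carry another style of library name. The labels allow either of 2 kits for every library, and the part of kit, depth or read handling in this gap was not tested. Changes between conditions were therefore tested only within a set, and results are also given from fits to the compared libraries alone.

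**Figure D1:**
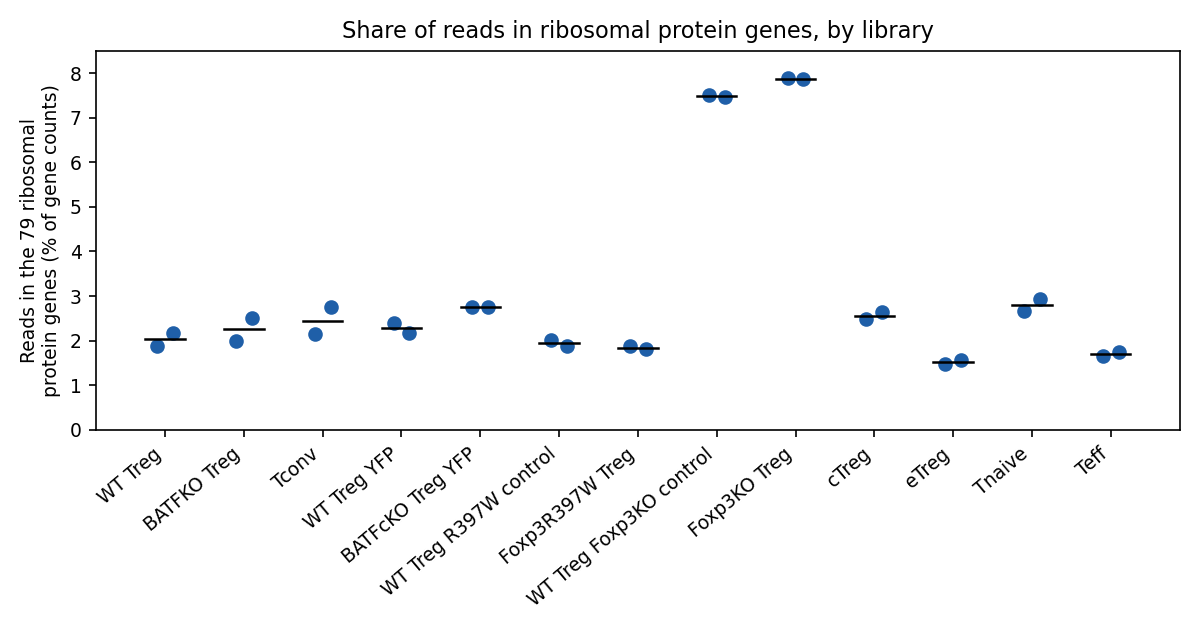
Percentage of gene counts in the 79 ribosomal protein genes (vertical axis) in each of 26 libraries (points, 2 per group) with group means (bars). The 4 libraries of the Foxp3KO set lie at 7.47% to 7.88% and all others at 1.47% to 2.93%, with eTreg and Teff below cTreg and Tnaive.

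The gap between the 2 kinds of control differed greatly from gene to gene. Over the 79 members the median log2 ratio of the Foxp3KO control to the R397W control was 3.08, against -0.01 over all tested genes. At least 4-fold higher were 52 members, against 1.68% of all tested genes, and 39 were more than 10-fold apart. For all tested genes, but not for the members, a small constant was added to each mean before the ratio was taken. The read minimum bears on this, since Rpl23a, Rps29 and Rpl36a, with 207, 255 and 173 reads in the 22 other libraries, became members only through the Foxp3KO set. Over the 76 members that reach the minimum without that set, a count made after the data were seen, the median was 3.03 and 49 were at least 4-fold higher. Rpl23a had 1.07 and 1.61 CPM in the R397W controls and 908 and 957 in the Foxp3KO controls. Rps23, part of the decoding site, had 3.06 and 5.94 against 1549 and 1528. By contrast 13 members lay within 2-fold, among them Rps3 with 2152 and 2066 against 2021 and 1944 CPM. Rps27 went the other way, with 8.10 and 8.03 against 3.01 and 3.10. Fau, which encodes ribosomal protein S30 under another name, showed the same step, with 0.857 to 5.83 CPM in 22 libraries and 908 to 1069 in the Foxp3KO set.

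The size of the gap went with how much of each transcript is shared with other genes. In the GENCODE M21 annotation, 78 of the 79 members share at least 1 stretch of 50 bases with a transcript of another gene, most often a pseudogene, and the median member has 45.5% of its 50-mers to itself. Across the 79 genes, which share libraries and are not replicates, the gap and the percentage of unique 50-mers had a Pearson r of -0.53 and a Spearman rho of -0.56, and the latter was -0.65 with 100-mers. The 33 members with at least 50% unique 50-mers had a median log2 gap of 1.62, and the 46 others had 5.04. Rps3, with 97% unique 50-mers, had a log2 gap of -0.09, but Rps20, with 92.4%, had 1.89 and Rps29, with 64.2%, had 8.15. Of the 21 members with a log2 gap above 6, 17 had under 50% unique 50-mers. The correlations, the medians of the 33 and 46 members and this count include Rpl23a, Rps29 and Rpl36a. These genes became members only through the Foxp3KO set and have log2 gaps of 9.45, 8.15 and 8.49. The values were not recomputed without them. Coding stretches of 50 bases show what is meant, and they were picked as those found in most other genes. The stretch of Rpl23a recurs in 18 other genes, that of Rpl21 in 44 and that of Rps23 in 12, while Rps27 has only 1.4% of its 50-mers to itself and shares its stretch with 5 genes.
Rpl23a: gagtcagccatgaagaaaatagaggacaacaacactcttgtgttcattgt
Rpl21: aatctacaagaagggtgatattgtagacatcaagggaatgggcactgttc
Rps23: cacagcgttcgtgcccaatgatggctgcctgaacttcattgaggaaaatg
Rps27: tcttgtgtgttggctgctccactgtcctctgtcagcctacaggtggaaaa
No source used here states how the authors treated reads that align to several places, so the level of a member with many copies is uncertain in every library, and its part in the gap was not tested.

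**Figure D2:**
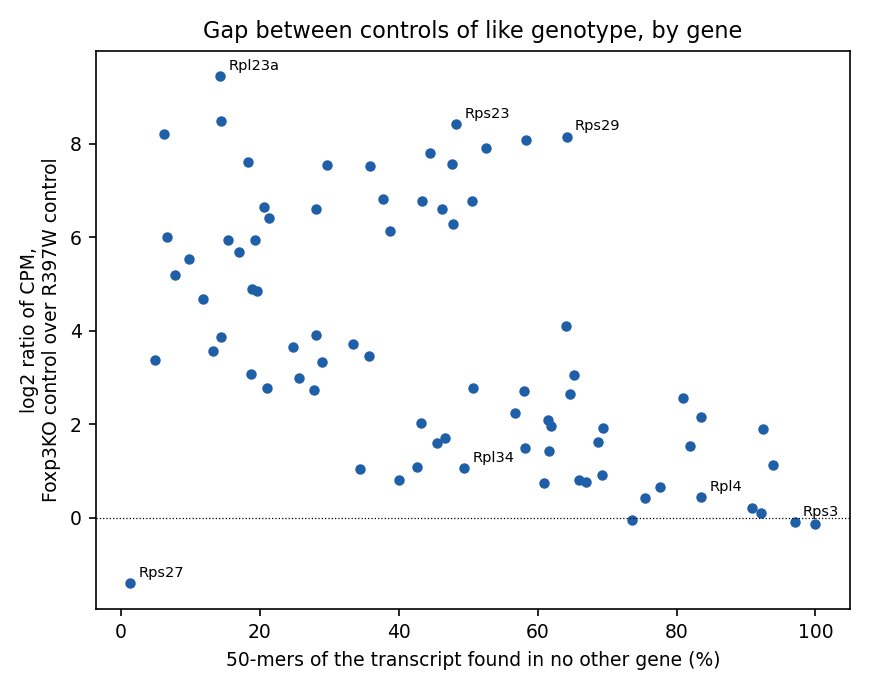
Each point is 1 of the 79 genes. The horizontal axis gives the percentage of 50-mers of its transcript found in no other gene, and the vertical axis the log2 ratio of mean CPM between the Foxp3KO and the R397W wild-type controls. Of the 21 points above 6, 17 have under 50% unique 50-mers, the 6 points at 90% or more lie at 1.89 or lower, and Rps27 is at -1.40. Rpl23a, Rps29 and Rpl36a, which are members only through the Foxp3KO set, are among the points above 6.

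Levels within the family were compared per transcript length, as CPM per kilobase of the chosen GENCODE transcript, averaged over the 13 groups. High levels were found for Rplp1, an acidic protein of the ribosomal stalk, at 2459, Rpl8 at 2066, Rps15 at 1973 and Rpl13a at 1727 CPM per kilobase. The lowest averages were those of Rps27l at 28.3, Rpl7l1 at 24.6, Rps27 at 24.0, Rpl34 at 9.84 and Rps4l at 2.38. The average includes the 2 groups of the Foxp3KO set, which lift the members with a large gap. In cTreg alone the lowest were Rps4l at 1.36, Rps23 at 1.45, Rpl36a at 1.52, Rpl23a at 1.64 and Rpl5 at 1.65 CPM per kilobase, far below Rps27l at 29.03 and Rpl7l1 at 28.5. Rps27l, Rpl7l1 and Rps4l are paralogs of Rps27, Rpl7 and Rps4x. The order depends on the transcript chosen, since annotated lengths ran from 345 bases for Rps27 to 5130 for Rps15a, and it carries the uncertainty of genes with many copies.

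Effector cells had lower ribosomal protein transcript levels than resting cells in both lineages. In eTreg against cTreg, 50 of the 79 members were called lower and 0 higher at an edgeR adjusted p below 0.05, where 12.3% of all tested genes were called lower and 18.8% higher. In Teff against Tnaive, 48 were called lower and 1 higher, against 14% and 21.2% of all genes. The median log2 change of the members was -0.71 in Treg and -0.70 outside them, and the median of all genes was 0.01 in both. Both eTreg libraries lay below both cTreg libraries in 68 members and above them in 1, against 35.4% and 38.2% of all genes, and both Teff libraries below both Tnaive libraries in 70 and above them in 2, against 36% and 38.3%. The share of reads in the members was 1.47% and 1.57% in eTreg against 2.48% and 2.63% in cTreg, a ratio of 0.594, and 1.66% and 1.74% in Teff against 2.67% and 2.93% in Tnaive, a ratio of 0.608. In bulk samples, fewer cells of a type and less RNA per cell cannot be told apart.

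**Figure D3:**
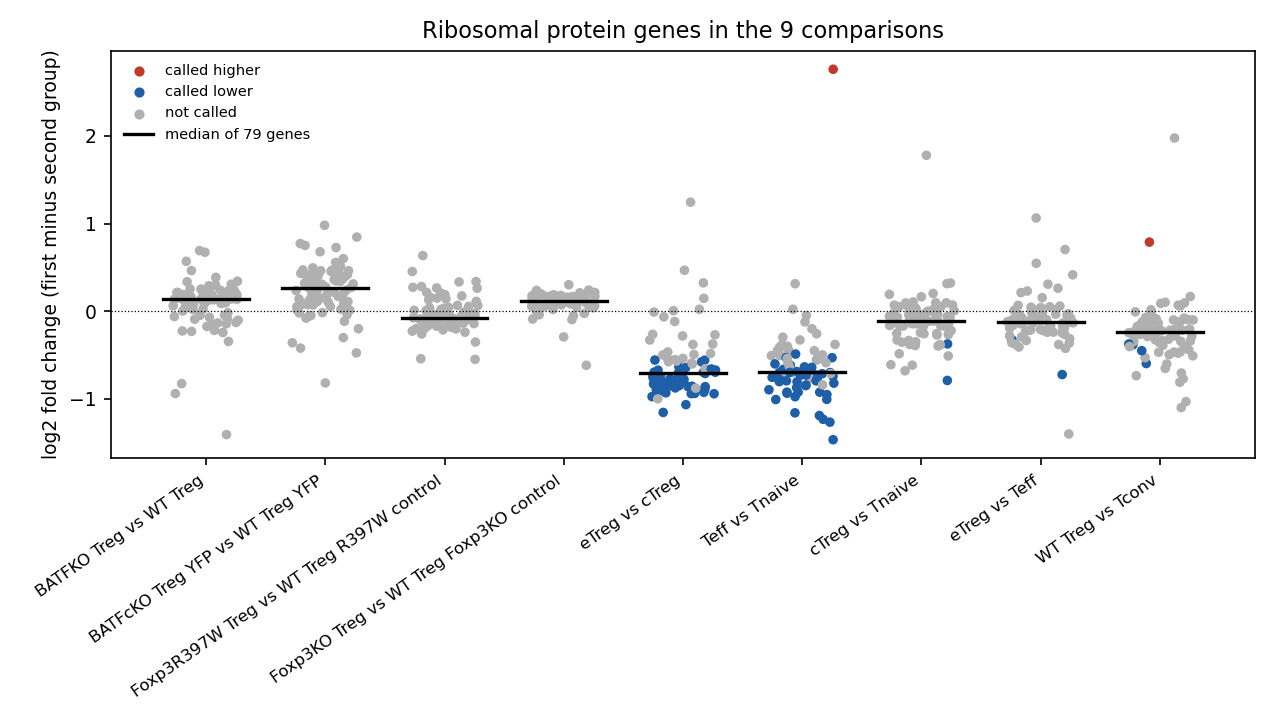
Fitted log2 fold changes (vertical axis) of the 79 genes in 9 comparisons, 1 point per gene, coloured by the edgeR call, with the median of the 79 genes as a bar. Called genes are concentrated in eTreg against cTreg and in Teff against Tnaive, where the medians are -0.71 and -0.70.

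The members with the smallest p came from both subunits. Rps20, a head protein of the small subunit (chr4:3831334-3835665 in mm10, minus strand), had 288 and 311 CPM in cTreg and 138 and 148 in eTreg, and 341 and 375 in Tnaive and 151 and 162 in Teff. The groups did not overlap, and the log2 changes were -1.07 ± 0.11 (SE; edgeR adjusted p = 2.4e-07) and -1.19 ± 0.11 (edgeR adjusted p = 4.2e-08). Rpl4, a large-subunit protein that reaches into the exit tunnel (chr9:64173375-64178666, plus strand), had 2267 and 2440 CPM in cTreg against 1301 and 1377 in eTreg, and 2379 and 2510 in Tnaive against 1506 and 1503 in Teff. Its changes were -0.81 ± 0.08 (edgeR adjusted p = 2.2e-07) and -0.70 ± 0.08 (edgeR adjusted p = 1e-06). Rps26, which sits at the messenger exit channel, fell by 0.86 and 0.90 on the log2 scale, with 271 and 285 CPM in cTreg, 147 and 159 in eTreg, 271 and 283 in Tnaive and 147 and 149.9 in Teff. For Rpl7 the levels were 458 and 485 against 255 and 286 CPM in Treg, and 461 and 472 against 285 and 284 outside them, so that every library of the CCR7loCD62Llo cells lay below every library of the CCR7hiCD62Lhi cells.

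In Treg, Rpl32 (log2 -0.91 ± 0.11, edgeR adjusted p = 3.9e-06) was also among the members with the smallest p. It had 370 and 394 CPM in cTreg and 199 and 208 in eTreg. Outside Treg, Rpl14 (-0.74 ± 0.09, edgeR adjusted p = 3.8e-06) and Rps4x (-0.93 ± 0.12, edgeR adjusted p = 7.7e-06) did so. Rpl14 had 201 and 208 CPM in Tnaive and 127 and 118 in Teff, and Rps4x had 342 and 357 against 189 and 179. All 3 genes were thus lower in both effector libraries than in both resting ones of their lineage.

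The medians of the 2 subunits lay close together. The 46 large-subunit members had medians of -0.70 in Treg and -0.68 outside them, with 29 and 28 called lower, and the 33 small-subunit members had -0.79 and -0.73, with 21 and 20 called lower. Among members with at least 20 CPM in the higher group, the farthest below the median in both comparisons was Rps19, the small-subunit maturation protein whose loss of function was the earliest known cause of Diamond-Blackfan anaemia. It had 312 and 321 CPM in cTreg, 133 and 152 in eTreg, 350 and 345 in Tnaive and 144 and 145 in Teff, with changes of -1.16 ± 0.22 and -1.27 ± 0.22 (edgeR adjusted p = 0.00045 and 0.00015). Rplp0, the base of the ribosomal stalk, had 1297 and 1390 CPM in cTreg and 656 and 710 in eTreg, and 1581 and 1665 in Tnaive and 789 and 823 in Teff, a change of -0.98 ± 0.15 and -1.01 ± 0.15. Of the 4 stalk genes Rplp0, Rplp1, Rplp2 and Rpl12, 3 were called lower in Treg and 4 outside them, against 12.3% and 14% of all tested genes. Rplp1 was the exception in Treg, at -0.66 ± 0.27 (edgeR adjusted p = 0.0763). Rpl10a, also far below the median outside Treg, had 23.0 and 29.7 CPM in Tnaive and 11.7 and 10.7 in Teff. Among 19 tested genes of the Diamond-Blackfan anaemia list, 11 and 12 were called lower, against 12.3% and 14% of all tested genes, and 0 higher.

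**Figure D4:**
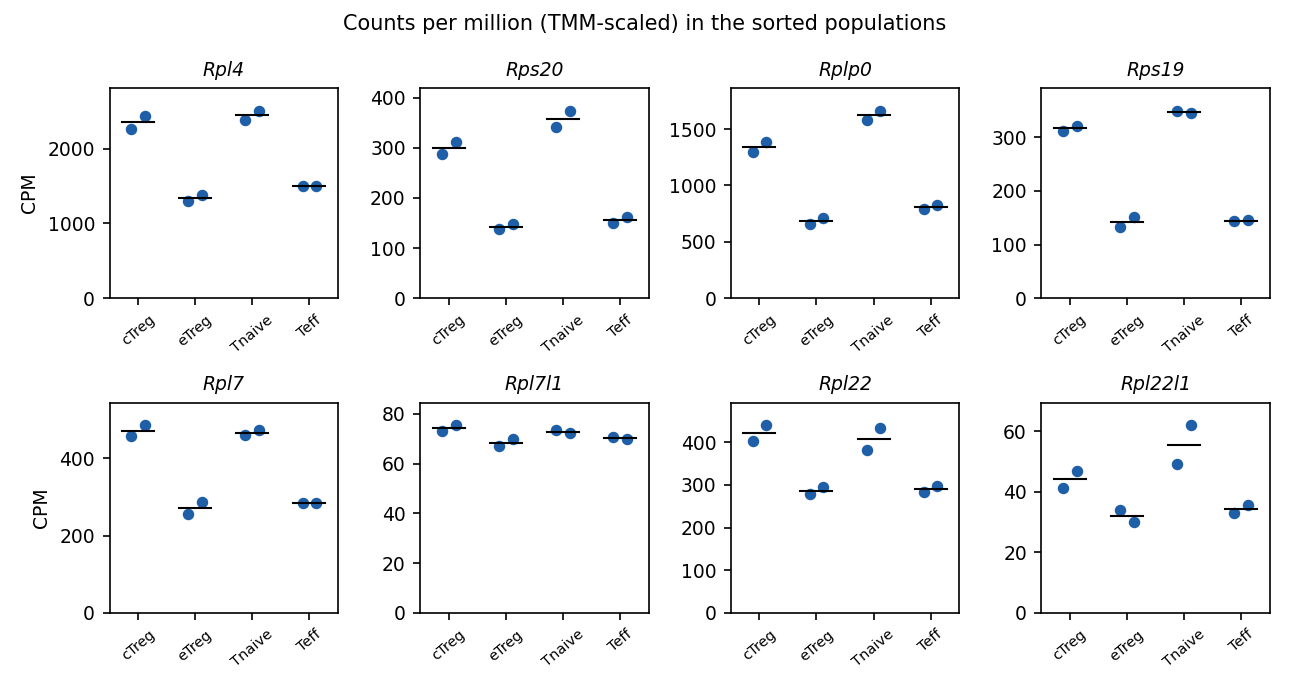
CPM (vertical axis, from 0) of 8 genes in the 4 sorted wild-type populations, 1 point per library and a bar at the mean of 2. Rpl4, Rps20, Rplp0, Rps19, Rpl7 and Rpl22 are lower in eTreg and Teff than in cTreg and Tnaive, while Rpl7l1 lies between 66.9 and 75.4 CPM in all 8 libraries.

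Some members were not called in both comparisons. Rpl7l1, a Rpl7 paralog (chr17:46773907-46782672, minus strand), had 73.25 and 75.4 CPM in cTreg, 66.9 and 70 in eTreg, 73.4 and 72.1 in Tnaive and 70.65 and 70.1 in Teff. Its log2 changes of -0.12 ± 0.11 and -0.05 ± 0.11 were the closest to 0 among members with at least 20 CPM, whereas Rpl7 itself fell in both. Rpl15 was at -0.33 ± 0.19 and -0.20 ± 0.19 (edgeR adjusted p = 0.23 and 0.468). Rpl22l1, a paralog of Rpl22, missed the threshold with a wider error, at -0.47 ± 0.31 and -0.70 ± 0.31, the latter no smaller than the members' median, and its effector and resting libraries did not overlap. Rpl22, which had 404 and 439 CPM in cTreg, 278 and 294 in eTreg, 382 and 433 in Tnaive and 283 and 297 in Teff, fell by 0.56 and 0.49. Rpl29 was called in Treg but not outside them, at -0.38 ± 0.24 (edgeR adjusted p = 0.236). Rps27l, a p53-responsive paralog of Rps27, was at 0.15 ± 0.20 and 0.31 ± 0.21.

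The only member called higher was Rps4l, a little known paralog of Rps4x. It had 2 and 4 reads in Tnaive and 17 and 28 in Teff, a fitted log2 change of 2.76 ± 0.73 (edgeR adjusted p = 0.0059). In cTreg and eTreg it had 6 and 16 against 22 and 31 reads, with 1.24 ± 0.56 (edgeR adjusted p = 0.107). Its level stayed at or below 2.98 CPM in every sorted library, and the call in Teff was lost without Tnaive library 1 (edgeR adjusted p = 0.066) or without Teff library 2 (edgeR adjusted p = 0.0533).

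The same genes made up most of both lists. Of the members called lower, 43 were called in both comparisons, which is 86% of those in Treg and 89.6% of those outside Treg. A further 7 were called in Treg only and 5 outside Treg only, and 24 in neither. Of those 24, 20 averaged under 20 CPM over the 8 sorted libraries, and the other 4 were Rpl41, Rpl7l1, Rpl22l1 and Rpl15. Among the 46 members with at least 20 CPM, 39 were called lower in both. The test of the difference between the changes, eTreg minus cTreg against Teff minus Tnaive, called 0 members at an edgeR adjusted p below 0.05, the smallest adjusted p being 0.392, for Rpl38. At an unadjusted p below 0.05 there were 0 members, against 651 genes higher and 1065 lower of 12227. The edgeR test called 1.57% of all genes higher and 3.85% lower. DESeq2 called 0 members, against 2.05% of all genes higher and 4.84% lower.

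**Figure D5:**
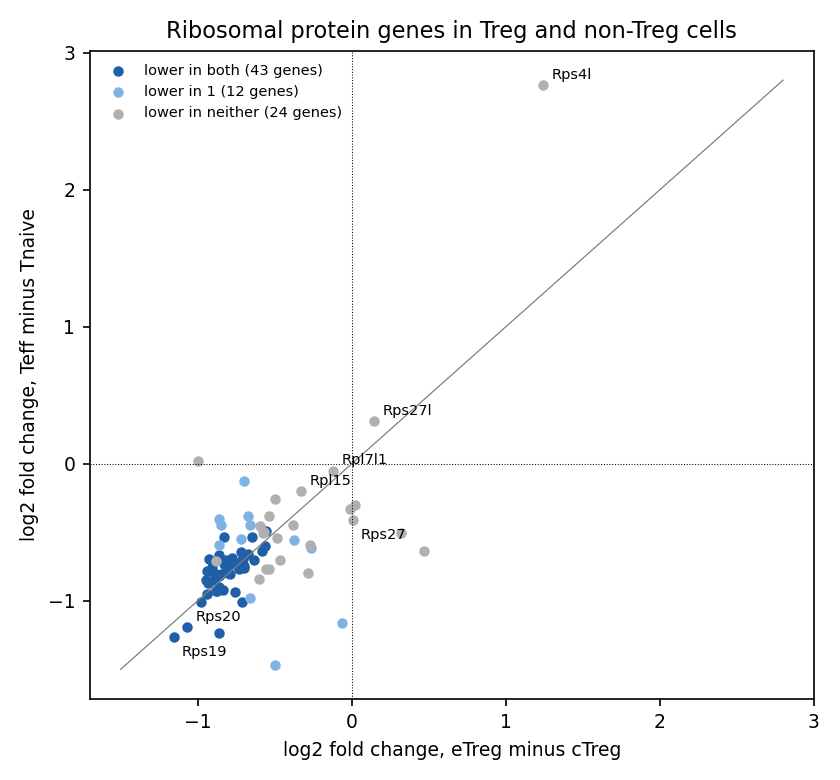
Log2 fold change in eTreg against cTreg (horizontal axis) and in Teff against Tnaive (vertical axis) for the 79 genes, coloured by whether each was called lower in both, in 1 or in neither, with a line of equal change. The 43 genes lower in both lie in the lower left, and Rps4l lies far above 0 on both axes.

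Sequence features described above were set against these changes. Of the 33 members with at least 50% unique 50-mers, 27 were called lower in Treg and 27 outside Treg, and of the 46 others 23 and 21. The medians were -0.74 and -0.70 for the former and -0.69 and -0.67 for the latter, a split chosen after the data were seen. The 17 members with CTTTCC near an annotated start had medians of -0.77 and -0.73, with 11 and 13 called lower, and the 42 with a window but without it had -0.70 and -0.67, with 26 and 22. The medians lie close together, but the shares called lower differed in the split by 50-mers. They were 81.8% in both comparisons for the former, against 50% in Treg and 45.7% outside Treg for the latter. No test of these values was made, and the part of read level in them was not tested.

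Leaving out single libraries, which left 1 library in a group, lowered the number called lower both among members and among all tested genes. Every median of the members stayed below 0. It ranged from -0.73 to -0.69 in Treg and from -0.79 to -0.62 outside Treg. A fit to the compared libraries alone, without the Foxp3KO set, called 56 and 51 lower, where 22.9% and 20.2% of all genes were called lower.

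Some other genes of the translation machinery were called lower in the effector cells. Among 19 translation factors and further TOP messages, 9 were called lower in Treg and 8 outside them, against 12.3% and 14% of all tested genes. None was called higher, against 18.8% and 21.2%, and the medians were -0.41 and -0.30. Eef1b2 and Eef1g, subunits of the exchange factor for elongation factor 1, fell by 0.85 and 0.73 in Treg and by 0.86 and 0.74 outside them. Eef1a1, which brings aminoacyl-tRNA to the ribosome, fell by 0.61 and 0.65, and Eef2, the translocation factor, by 0.70 and 0.62. Hnrnpa1 was not called, at -0.42 ± 0.23 and -0.41 ± 0.23. Of 4 ribosomal proteins with other names, 3 were called lower in Treg and 2 outside them, against 12.3% and 14% of all tested genes. Gnb2l1, which encodes RACK1, was called lower in both, Rpl36al in Treg only, and Fau in neither.

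Genes that build ribosomes had medians below 0 that were smaller in size. Of 45 ribosome biogenesis genes, 21 were called lower in Treg and 24 outside them, against 12.3% and 14% of all tested genes. None was called higher, against 18.8% and 21.2%, and the medians were -0.41 and -0.46. Nop56, a core protein of box C/D small nucleolar particles, was at -0.67 ± 0.13 (edgeR adjusted p = 0.00055) in eTreg, and Nolc1, a nucleolar phosphoprotein, at -0.47 ± 0.09 (edgeR adjusted p = 0.00052). In Teff, Tsr1, a factor of small-subunit assembly, was at -0.69 ± 0.11 (edgeR adjusted p = 6.6e-05) and Nop14 at -0.53 ± 0.08 (edgeR adjusted p = 5.5e-05). Ncl and Fbl, encoding nucleolin and fibrillarin, were not called, at -0.16 ± 0.12 and -0.51 ± 0.34 in Treg. RNA polymerase I genes gave 2 and 6 of 14 called lower, against 12.3% and 14% of all tested genes, the former being close to its share. Polr1a and Polr1b, the large catalytic subunits, were among them in both comparisons. Of 7 noncoding hosts of small nucleolar RNAs, 2 were called lower in Treg, Snhg1 and Snhg12, and 4 outside them. Of all tested genes, 12.3% and 14% were called lower.

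Mitochondrial ribosomal proteins, in contrast, had medians of -0.08 and -0.01 over 77 genes. In Treg 1 was called higher and 1 lower, against 18.8% and 12.3% of all tested genes. Outside Treg 1 was higher and 2 were lower, against 21.2% and 14%. Mrps6 was the member called higher in both, at 0.98 ± 0.14 and 0.71 ± 0.14, and Mrpl30 the member called lower in both, at -0.70 ± 0.11 and -0.65 ± 0.11.

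Among 16 tested regulators of ribosomal protein synthesis, 2 were called higher and 3 lower in Treg, against 18.8% and 12.3% of all tested genes. Outside Treg 1 was higher and 4 were lower, against 21.2% and 14%. With so few genes these counts are not set apart from those shares, and the genes named here are single cases. Myc fell by 1.65 and 1.49 on the log2 scale (edgeR adjusted p = 4.6e-09 and 9.7e-09), and Larp1 by 0.73 and 0.39. Eif4ebp1, an mTOR-regulated repressor of cap-dependent translation, rose by 1.0 in eTreg, and Cdkn1a, a p53 target, was higher in both effector populations. Mtor itself was not called, at -0.06 ± 0.14 and -0.23 ± 0.14.

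Markers of other cells moved in the same comparisons. The 8 B cell markers summed to 62.0 and 62.5 CPM in eTreg against 14.3 and 15.75 in cTreg, and to 69.0 and 76.4 in Teff against 8.35 and 9.29 in Tnaive. The 14 myeloid and dendritic markers had 79.3 to 82.8 CPM in eTreg and 81.2 to 90.65 in cTreg, but 167.5 to 462 in Teff against 69.9 to 79.1 in Tnaive, with none at 0 in Teff. Single markers did not all follow these sums. Of the 14, 3 were called higher and 1 lower in eTreg, and 11 and 1 in Teff, with median log2 changes of 1.02 and 4.26. Of 4 B cell markers tested, 3 were called higher and 1 lower in eTreg, and 2 and 1 in Teff. Of all tested genes, 18.8% were called higher and 12.3% lower in eTreg, and 21.2% and 14% in Teff. The 8 CD8 and NK markers had 19.98 to 21.3 CPM in eTreg, 28.5 to 36.7 in cTreg, 181 to 244 in Teff and 66.7 to 71.4 in Tnaive. The 5 plasma cell markers had 157 to 165 CPM in eTreg and 109 to 119 in Teff, against 78.7 to 84.5 and 49.6 to 57.8 in the resting cells. The 7 stromal markers were lower in the effector cells, with 111 to 116 CPM in eTreg against 273 to 281 in cTreg and 131 to 141 in Teff against 275 to 284 in Tnaive, and Col3a1 and Dcn had 0 reads in all 4 populations. The 12 dissociation stress genes had 1622 to 1841 CPM in eTreg against 1351 to 1418 in cTreg, and overlapped between Teff and Tnaive. Some of these genes are also expressed by effector T cells, and the part of other cells in the lower ribosomal protein levels was not tested.

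Few members were called between Treg and non-Treg cells of the same activation state, though most had slightly lower levels in Treg. In cTreg against Tnaive, 2 of the 79 members were called lower and 0 higher, against 4.29% and 7.91% of all genes, and in eTreg against Teff also 2 lower and 0 higher, against 7.26% and 8.21%. They were Rpl14 and Rpl10 in both comparisons, which share no library. Rpl14 was at -0.37 ± 0.09 (edgeR adjusted p = 0.0096) and -0.33 ± 0.09 (edgeR adjusted p = 0.0221), with 155 and 161 CPM in cTreg against 201 and 208 in Tnaive, and 100.2 and 94.9 in eTreg against 127 and 118 in Teff. Rpl10, a late-joining large-subunit protein with 7.9% unique 50-mers, was at -0.79 ± 0.23 and -0.72 ± 0.24 (edgeR adjusted p = 0.0252 and 0.047), with 8.74 and 9.61 CPM in cTreg, 15.3 and 16.5 in Tnaive, 7.93 and 6.14 in eTreg and 10.8 and 12.4 in Teff. Both genes were lower in the Treg libraries without overlap. Leaving out single libraries left 0 or 1 call in each comparison, the libraries without which none was left being cTreg 1 and either Tnaive library in the former and eTreg 2 and Teff 1 in the latter. Fitted to the compared libraries alone, 10 and 7 members were called lower, against 11.1% and 9.42% of all genes. The members' median was -0.11 and -0.12, and closest to 0 without Tnaive library 2 (-0.02) and without Teff library 2 (-0.07). Both Treg libraries lay below both non-Treg libraries in 31 and 34 members, against 3612 and 3689 of 12227 tested genes. They lay above them in 3 and 5 members, against 3587 and 3759 tested genes. The share of reads in the members was lower in Treg without overlap in both comparisons, with ratios of 0.913 and 0.892.

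In WT Treg against Tconv of the germline set, the fit to all libraries did not call members more often than other genes. With a replicate block more members were called lower, as given at the end. The log2 change was below 0 in 70 of the 79 members, against 6154 of 12227 tested genes. Of the 79 members 4 were called lower and 1 higher, against 6.68% and 12.1% of all genes, with a median log2 change of -0.24. The lower ones were Rps20 (-0.45 ± 0.10, edgeR adjusted p = 0.00432), Rpl14 (-0.38 ± 0.10, edgeR adjusted p = 0.0072), Rps4x (-0.37 ± 0.12, edgeR adjusted p = 0.0421) and Rpl19 (-0.60 ± 0.20, edgeR adjusted p = 0.0486). Rps20 had 216 and 210 CPM in WT Treg and 293 and 289 in Tconv, and Rpl14 had 125 and 117 against 156 and 160. Rps27l was higher, with 13.2 and 9.42 against 7.61 and 5.62 CPM (log2 0.79 ± 0.25, edgeR adjusted p = 0.0346). The share of reads in the members overlapped between the groups, with 1.88% and 2.18% in WT Treg and 2.14% and 2.75% in Tconv. Leaving out any single library left 1 library in a group. It raised the number of members called lower, which is not set against all genes here. A fit to these 4 libraries alone called 0 in either direction, where 3.93% of all genes were called higher and 1.04% lower. The median was -0.10 without Tconv 2 and -0.37 without WT Treg 2. The Rps27l call was lost without WT Treg 1 or Tconv 2. Dissociation stress genes summed to 8818 to 16540 CPM in WT Treg and 6172 to 11460 in Tconv, and their part in these differences was not tested.

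With edgeR fitted to all libraries without a replicate block, no member passed the threshold in either model of BATF loss. With that block, members were called higher in both models more often than other genes, as given at the end. BATFKO Treg against WT Treg gave 0 members called higher and 0 lower with edgeR, where 1.05% and 1.64% of all genes were called. At an unadjusted p below 0.05, 4 members were higher and 2 lower, against 597 and 863 of 12227 tested genes. DESeq2 called 1 higher, against 1.57% of all genes. BATFcKO Treg YFP against WT Treg YFP also gave 0 and 0 with edgeR, against 0.319% and 1.72% of all genes. In this comparison 17 members were higher and 0 lower at an unadjusted p below 0.05, against 389 and 916 of 12227 tested genes. There DESeq2 called 4 higher, against 0.679% of all genes, and so did edgeR fitted to these 4 libraries alone, where 0.623% of all genes were called higher. The members' medians were 0.14 and 0.26 on the log2 scale, the former being 0.0075 without BATFKO Treg library 2, 0.24 without BATFKO Treg library 1 and 0.08 without WT Treg library 1. Both BATFcKO Treg YFP libraries, with 2.77% and 2.75% of reads in the members, lay above both controls, with 2.41% and 2.18%, whereas BATFKO Treg, with 1.998% and 2.51%, overlapped WT Treg, with 1.88% and 2.18%.

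Individual genes in the BATF comparisons show how small these shifts were. Rps26 had the smallest p in the conditional knockout, with 302 and 309.9 CPM against 255 and 231 in the controls (log2 0.33 ± 0.09, edgeR adjusted p = 0.0779). Rpl32 followed, with 540.4 and 511 against 428 and 391 CPM (0.36 ± 0.11, edgeR adjusted p = 0.131). In the germline knockout Rps26 had 231 and 275 CPM against 217 and 213 (0.24 ± 0.09, edgeR adjusted p = 0.258), and Rps20 had 257.5 and 269.7 against 216 and 210 (0.31 ± 0.10, edgeR adjusted p = 0.165). For all 3 genes both knockout libraries lay above both controls, although the differences missed the threshold. The smallest p of the germline knockout belonged to Rpl5, with 1.87 and 2.17 against 4.62 and 2.97 CPM (-0.94 ± 0.30, edgeR adjusted p = 0.13). With at least 20 CPM, the members farthest from the median were Rpl29 (0.46 ± 0.24) and Rpl10 (-0.17 ± 0.22) in the germline knockout, and Rpl36 (0.75 ± 0.37) and Rpl22l1 (-0.36 ± 0.32) in the conditional one. In the conditional knockout, 37 members had both knockout libraries above both controls, against 19.2% of all genes, and 2 had them below, against 22.4%. In the germline knockout the counts were 12 and 4, against 11.1% and 14.2%. The test of the difference between the 2 models called 0 members in either direction and 0 of all tested genes with edgeR. DESeq2 called 0 members, against 0.0736% of all genes higher and 0.0164% lower. At an unadjusted p below 0.05 with edgeR, 0 members were higher and 2 lower, against 422 and 211 of 12227 tested genes. Myc, in the list of regulators, was called higher in BATFcKO Treg YFP, at 0.54 ± 0.11 (edgeR adjusted p = 0.0125).

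The Foxp3 mutants gave small shifts of opposite sign. In Foxp3R397W Treg, 0 members were called higher and 0 lower with edgeR, against 2.18% and 3.94% of all genes. DESeq2 also called 0, against 2.59% of all genes higher and 4.38% lower. At an unadjusted p below 0.05, 0 members were higher and 1, Rps27l, was lower, against 797 and 1199 of 12227 tested genes. The median was -0.07. In Foxp3KO Treg, 0 members were called with edgeR, against 2.62% of all genes higher and 6.39% lower. At an unadjusted p below 0.05, 1 member, Rps29, was higher and 0 were lower, against 910 and 1515 of 12227 tested genes. DESeq2 called 1 higher, against 3.82% of all genes. The median was 0.12. Both Foxp3KO libraries were above both controls in 65 of the 79 members, against 36.6% of all genes, and below them in 5, against 33.8%. For Foxp3R397W the counts were 5 above and 28 below, against 23.8% and 26.3%. Its members farthest above the median were Rpl10, Rpl29 and Rpl14, at 0.21 ± 0.21, 0.16 ± 0.25 and 0.14 ± 0.10, and farthest below were Rpl35, Rpl7a and Rpsa, at -0.23 ± 0.24, -0.21 ± 0.21 and -0.20 ± 0.26.

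Single genes show the size of these shifts in Foxp3KO Treg. Rps29 had 423 and 424 CPM in the controls and 516 and 528 in Foxp3KO Treg (log2 0.30 ± 0.14, edgeR adjusted p = 0.249). Rpl5, which carries 5S ribosomal RNA and binds MDM2, had 1142 and 1178 against 1377 and 1365 (0.24 ± 0.13), and Rpl13a had 2813 and 2684 against 3287 and 3192 (0.24 ± 0.16). Rps27l was on the lower side, with 21.3 and 23.45 against 17.7 and 18.8 CPM (-0.29 ± 0.18), as were Rpl7l1 at -0.10 ± 0.11 and Rpl22l1 at -0.09 ± 0.28. Fitted to these 4 libraries alone, edgeR called 35 members higher and 1 lower, against 14.7% and 17.2% of all genes. The difference between the Foxp3KO and Foxp3R397W changes was tested and gave 0 members in either direction with edgeR, against 0.00818% of all genes each way. At an unadjusted p below 0.05 there were 0 members, against 191 genes higher and 216 lower of 12227.

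Genes outside the family with the most similar profile were sought over the 13 group means of log2 CPM among 7176 genes with at least 20 CPM. Among the 10 closest to the mean member were Eef1a1 (Pearson r 0.998), Hnrnpf, Eef1g, Tmsb10, Tpt1, Impdh2, Ppia, Nsa2 and Rnps1 (0.975). The step between the Foxp3KO set and the rest dominates this measure. Over the 11 other groups, an alternative chosen after the data were seen, the closest were Igfbp4 (0.976), Rab3ip, Taf4b, Mtss1, Abhd11, Slc44a2, Ezr, Adcy6, Atad3a and Dph5 (0.958), none of which was in the former list.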

How the data were processed

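Poly(A) RNA from 26 libraries in 13 groups of 2 was analysed. The deposited values are raw gene counts made by the authors, with reads aligned by STAR 2.6.1c to mm10 per the submitters' processing notes. The counting tool, annotation, strand setting and treatment of multiply aligned reads are not given in the sources used here. A first table holds 24 of the libraries, with 0 values different. The count table also holds 4 columns of per-sample values that match no sample label, and they were not used. Depth was 5615929 to 34613707 counts per library.

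Counts were tested with edgeR 4.0.16 (R 4.3.3, limma 3.58.1): filterByExpr, TMM scaling and a robust quasi-likelihood fit of 13 group means over all libraries with 13 residual degrees of freedom, so that all groups share an estimate of the spread. Called means a Benjamini-Hochberg adjusted p below 0.05 over 12227 genes; 12184 were removed by the filter. Standard errors are approximate, taken from each log2 change and its F statistic. There were 9 comparisons and 3 tests of differences between them. CPM values are TMM-scaled, and a group appears by its libraries since n = 2. The fit was tested on simulated data. Alternatives were DESeq2 1.42.0, its size factors in edgeR, scaling without the members, no filter, a replicate block, the compared libraries alone and leaving out each library. Shared 50-mers were counted in GENCODE M21 transcripts (GRCm38, the build of mm10), and start regions came from RefSeq tables of GRCm38.p6. Tables were handled with Python 3.11.15 and pandas 2.3.3 and drawn with matplotlib 3.10.9.

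Members, gene lists and tests were chosen with earlier results of these data known. Named were the 5 highest and 5 lowest members per length, paralogs with their partners, up to 6 called members per direction with the smallest p, members farthest from the median with at least 20 CPM in the higher group, and from each other list up to 4 called and 2 uncalled genes; not every gene the rule allows is printed. Other members, such as Rps3, Rps23, Rpl21 and Rpl23a in the comparison of the controls, were chosen after their values were seen. Some genes are not reported here.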

Additional observations from a re-analysis of the deposited data

Results flagged for a closer look

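The share of reads in the ribosomal protein genes moved in opposite directions in the 2 Foxp3 mutants, each against its own control. The ratio of mean shares was 1.051 in Foxp3KO Treg, where both libraries were above both controls, and 0.949 in Foxp3R397W Treg, where both were below. The difference between the 2 ratios was not tested, and the sets differ in depth and overall share as described above.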

How the results depend on the processing

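Of the values of comparisons under the alternatives, 321 stayed within their limits, 60 moved and 1 reversed. Of those of named members, 330 kept their status as called or not called, 33 lost a call, 11 gained one and 0 reversed. Shares in parentheses are those of all tested genes under the same setting. DESeq2 called 1 member higher in BATFKO (1.57%), 4 in BATFcKO (0.679%), 1 in Foxp3KO (3.82%) and 2 in WT Treg against Tconv (12.1%), and 4 lower in eTreg against Teff (7.71%) and 7 in WT Treg against Tconv (8.31%). With only the compared libraries, 4 were higher in BATFcKO (0.623%), 35 higher (14.7%) and 1 lower (17.2%) in Foxp3KO, 1 higher in eTreg against cTreg (26.9%), 10 lower in cTreg against Tnaive (11.1%), 7 lower in eTreg against Teff (9.42%), and 0 higher (3.93%) and 0 lower (1.04%) in WT Treg against Tconv. Without the filter, 1 was lower in cTreg against Tnaive (2.4%) and 1 in eTreg against Teff (4.93%). The Foxp3KO median was 0.13 with DESeq2 or its size factors and 0.11 with scaling without the members or with its own libraries, and the eTreg against cTreg median was -0.77 without the filter or with scaling without the members. Apart from fewer genes or libraries entering a fit, the cause was not tested.

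Libraries with the same number share only that number; the correlation of their deviations was 0.49 to 0.57 in the germline set, 0.24 in the YFP set and 0.08 to 0.23 in the sorted set. With the replicate block, 9 members were higher (3.87% of all genes) and 1 lower (4.6%) in BATFKO, 31 higher in BATFcKO (3.85%), 1 higher in eTreg against cTreg (26.3%), 2 higher in Teff against Tnaive (28.6%), 10 lower in cTreg against Tnaive (10.3%), 13 lower in eTreg against Teff (14.1%), and 2 higher (18.1%) and 31 lower (16%) in WT Treg against Tconv. The effector difference then gave 1 higher (5.28%) and 1 lower (8.15%) and the BATF difference 2 lower (0.45%). No paired analysis was possible for the Foxp3R397W and Foxp3KO comparisons because they share no numbers with their controls.

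Leaving out each library in turn, members called lower ranged from 31 to 36 in eTreg against cTreg, 29 to 45 in Teff against Tnaive, 0 to 1 in cTreg against Tnaive, 0 to 1 in eTreg against Teff and 6 to 11 in WT Treg against Tconv. Members called higher ranged from 0 to 1 in BATFKO, 0 to 1 in BATFcKO, 0 to 1 in Teff against Tnaive and 0 to 2 in WT Treg against Tconv. Medians ranged from 0.0075 to 0.24 in BATFKO, 0.21 to 0.34 in BATFcKO, 0.12 to 0.14 in Foxp3KO, -0.10 to -0.06 in Foxp3R397W, -0.73 to -0.69 in eTreg against cTreg, -0.79 to -0.62 in Teff against Tnaive, -0.17 to -0.02 in cTreg against Tnaive, -0.16 to -0.07 in eTreg against Teff and -0.37 to -0.10 in WT Treg against Tconv.
The share ratio of BATFKO to WT Treg, 1.113, ranged from 0.9859 (without BATFKO replicate 2) to 1.24, and that of BATFcKO to its control from 1.145 to 1.265. Low read numbers limit members under 20 CPM, such as Rps4l.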
